A study of Oryctolagus cuniculus with 34 samples.

Results

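The dystrophin-glycoprotein complex was followed here through 7 of its genes: DMD, UTRN, DAG1, SGCA, SGCB, SGCD and SSPN. They were chosen by name and not by a rule on their values, though with earlier results of these data known. They make up 7 of the 18176 genes in the count files. Each of the 7 was found in every file, and each passed the filter on low counts in every fit. The lowest count of any of them in a library was 221 (UTRN) and the highest was 8977 (SGCA), so none was near the limit of detection.

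The complex spans the surface membrane of the muscle fibre and ties the actin cytoskeleton to laminin in the basement membrane. Dystrophin sits on the inner side. Dystroglycan crosses the membrane and carries the sugar chains that bind laminin, and the sarcoglycans and sarcospan form a subcomplex beside it. In humans, loss of dystrophin causes Duchenne muscular dystrophy, and loss of single sarcoglycans causes forms of limb-girdle muscular dystrophy. Utrophin is the homologue of dystrophin that in adult muscle lies mainly at the neuromuscular junction, and it is found more widely along the membrane of developing and regenerating fibres.

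Bulk RNA was sequenced from rabbit supraspinatus, which belongs to the rotator cuff. The 34 libraries fall into 6 groups. In the long term, 5 muscles were treated with a matrix gel along with a repair, 5 had the repair only and 10 were uninjured. In the short term, 5 muscles had the gel, 5 had the repair only and 4 had the injury only. The labels give neither the length of the terms nor the age or strain of the animals, there was no uninjured group in the short term, and there was no injury-only group in the long term. Whether each library had its own animal is not stated. Codes in the deposited files differ within each group and join every operated long-term muscle to an uninjured one, 10 animals in all if the codes are animals. The p-values measure the spread between these libraries, part of which may be technical.

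Levels are given as CPM, counts scaled to a common library total, after TMM scaling over all 34 libraries and without division by gene length, so a level is compared between samples and not between genes. Total counts ran from 12582302 to 15019158 in the long-term libraries and from 26904529 to 32313295 in the short-term libraries. Depth therefore differed between the terms without overlap, and a difference between terms cannot be told apart from one in depth or sequencing run. Skeletal muscle markers were present in every library: the lowest levels were 6449 CPM for ACTA1 (skeletal actin), 1496 CPM for CKM (muscle creatine kinase) and 6618 CPM for TTN (titin). The summed level of 8 fibre markers ran from 46860 CPM in short-term repair 5 to 286190 CPM in short-term injury 1. In bulk tissue, fewer fibres and less RNA per fibre cannot be told apart.

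Several libraries lay apart from their groups. Long-term gel 1 had 1911 CPM of NEB (nebulin) and 17267 CPM of TTN, whereas the medians of the long-term gel group were 14337 CPM of NEB and 42274 CPM of TTN. The same library had 139860 CPM of ACTA1 and 20364 CPM of RYR1 (the calcium release channel), the highest of its group. Short-term repair 5 had the lowest fibre sum and the highest fibroblast sum of its group, with 84867 CPM over 8 fibroblast markers. Short-term injury 3 had a fibre sum of 64658 CPM, the lowest of its group, and short-term repair 4 one of 246820 CPM, the highest of its group. The members' differences that these libraries move most are given with and without them.

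DMD encodes dystrophin, the rod-shaped protein that connects actin to dystroglycan. In the long term, DMD had 38.8, 165, 186, 186 and 205 CPM in the gel libraries, 201, 170.0, 237, 214 and 197 CPM in the repair libraries, and 110.5 (lowest), 170.4 (median) and 196 CPM (highest) in the 10 uninjured libraries. Gel 1 was the lowest of all 34, and the 3 groups overlapped. Short-term DMD had 171, 182, 149.5, 229 and 208 CPM in gel muscles, 154, 195, 193, 209.9 and 69.5 CPM in repair muscles and 164, 179, 120.3 and 176 CPM in injury-only muscles. The low value among the repairs was that of replicate 5, and the groups overlapped. Mean DMD was highest in long-term repair (204 ± 24.3 CPM, SD, n = 5), followed by short-term gel, long-term uninjured, short-term repair, short-term injury and long-term gel (156 ± 67.1 CPM, n = 5), and every neighbouring pair in this order overlapped. Without gel 1 the long-term gel mean was 185 ± 16.3 CPM (n = 4).

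UTRN, for utrophin, had 23.1, 51.9, 55.9, 54.0 and 51.9 CPM in the long-term gel libraries and 69.0, 63.3, 62.0, 51.4 and 45.7 CPM in the repair libraries, against 49.9 (lowest), 59.8 (median) and 64.6 CPM (highest) in uninjured muscle. Gel 1 was again the lowest of all libraries, and the other gel values lay inside the uninjured range. Short-term UTRN had 40.03, 38.4, 49.3, 40.9 and 44.5 CPM in gel muscles, 64.2, 63.4, 52.2, 43.2 and 47.7 CPM in repair muscles and 38.1, 42.8, 90.6 and 46.1 CPM in injury-only muscles. The 90.6 CPM of injury 3 was the highest of all libraries. The injury mean was 54.4 ± 24.3 CPM (n = 4), and 42.3 ± 4.06 CPM without it (n = 3). Short-term gel had the lowest group mean, 42.6 ± 4.36 CPM (n = 5), and uninjured muscle the highest, 58.4 ± 4.91 CPM (n = 10), and neighbours in the order of the 6 means overlapped.

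DAG1 encodes dystroglycan, made as 1 precursor and cut into the laminin-binding and the membrane-spanning part. It had 382, 359, 396, 322 and 314 CPM in the long-term gel libraries and 277, 345, 389, 343 and 389.6 CPM in the long-term repair libraries, against 244 (lowest), 317 (median) and 365 CPM (highest) in uninjured muscle. Short-term values of DAG1 were 190.2, 248, 249, 216 and 191 CPM in gel muscles, 136, 205, 183, 221 and 129.9 CPM in repair muscles and 233, 250.0, 181 and 205 CPM in injury-only muscles. Every long-term gel library was above every short-term gel library, though not when scaled by total counts. Every long-term repair library was above every short-term repair library. The 3 long-term groups overlapped one another, as did the 3 short-term groups. Mean DAG1 was highest in long-term gel (355 ± 35.96 CPM, SD, n = 5), followed by long-term repair, uninjured muscle (309 ± 36.7 CPM, n = 10), short-term gel, short-term injury and short-term repair (175 ± 40.8 CPM, n = 5), and neighbours in this order overlapped.

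SGCA encodes alpha-sarcoglycan, the sarcoglycan restricted to striated muscle. It had 604, 198, 225, 211 and 188 CPM in the long-term gel libraries, 157, 200.3, 168, 192 and 210.4 CPM in the repair libraries, and 146 (lowest), 174 (median) and 215 CPM (highest) in uninjured muscle. Gel 1, the lowest library for DMD and UTRN, was the highest of all 34 for SGCA. Short-term SGCA had 224, 229.6, 182, 248 and 318 CPM in gel muscles, 119.6, 175, 211, 341 and 129 CPM in repair muscles and 333, 286, 124 and 274 CPM in injury-only muscles. The repair group was the widest apart, with replicate 4 high and replicates 1 and 5 low, and the one low injury value was that of replicate 3. Group means ran from 285 ± 179 CPM in long-term gel (205 ± 16.1 CPM without gel 1, n = 4) to 177 ± 25.7 CPM in uninjured muscle, and neighbours in the order overlapped.

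SGCB and SGCD, for beta- and delta-sarcoglycan, form the core on which the sarcoglycan subcomplex assembles. SGCB ranged from 69.8 to 154 CPM in long-term gel, from 64.5 to 112 CPM in long-term repair and from 60.7 to 114 CPM in uninjured muscle. Its short-term range was from 51.2 to 128 CPM with the gel, from 21.5 to 103 CPM with repair only and from 63.1 to 133 CPM with injury only. The 21.5 CPM of repair 5 stood apart from the other 4 repair libraries, which had at least 79.9 CPM. SGCD ranged from 29.9 to 54.7 CPM in long-term gel, from 38.7 to 49.5 CPM in long-term repair and from 33.5 to 55.8 CPM in uninjured muscle, and from 27.9 to 50.0 CPM, 22.2 to 43.3 CPM and 21.9 to 66.6 CPM in short-term gel, repair and injury. The groups overlapped for both genes.

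SSPN encodes sarcospan, a small protein with several membrane passes that binds the sarcoglycans. It had 40.5, 124, 109.5, 128 and 88.1 CPM in the long-term gel libraries and 71.4, 106, 88.4, 98.9 and 116 CPM in the repair libraries, against 63.0 (lowest), 96.0 (median) and 149.99 CPM (highest) in uninjured muscle. Short-term SSPN had 41.1, 72.6, 41.4, 46.6 and 31.2 CPM in gel muscles, 61.8, 85.7, 58.0, 64.9 and 31.2 CPM in repair muscles and 104, 120.3, 38.3 and 50.1 CPM in injury-only muscles. Of the long-term gel libraries, 4 were above every short-term gel library, and gel 1 lay inside the short-term range. The injury-only libraries fell into a high and a low pair. The 3 long-term means (96.1 to 100.4 CPM) stood above the 3 short-term means (46.6 to 78.3 CPM), with overlap between all neighbours in the order.

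**Figure D1:**
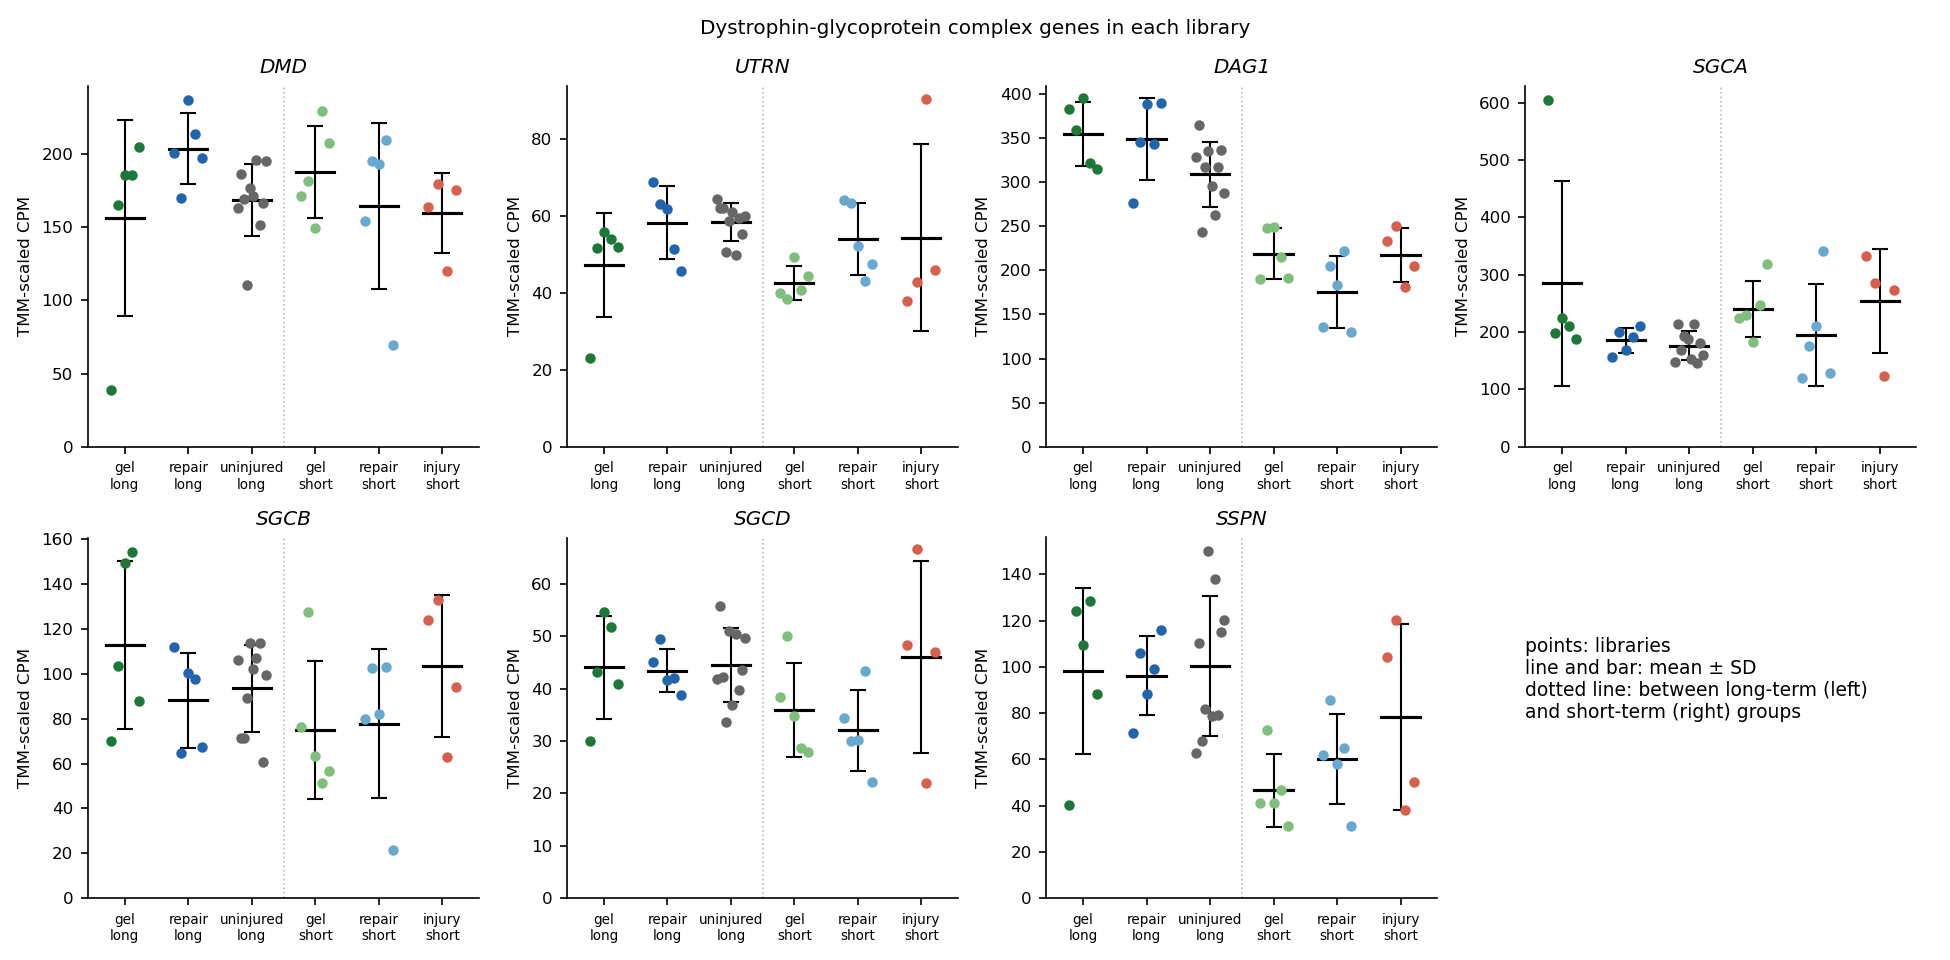
TMM-scaled CPM (linear axis from 0) of the 7 genes in each of the 34 libraries, by group, with long-term groups left of the dotted line and short-term groups right of it. Points are libraries and black lines and bars are means ± SD. DAG1 lies higher in the long-term groups, with 314 to 396 CPM in long-term gel against 190.2 to 249 CPM in short-term gel, and long-term gel 1 stands apart at 38.8 CPM of DMD and 604 CPM of SGCA.

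In the long term, the question was what the gel added to a repair, and how far either operated muscle differed from uninjured muscle. With the gel against repair only, 0 of the 7 genes passed the threshold (edgeR's quasi-likelihood test, adjusted p under 0.05), where 0% of all 11605 genes tested did, and 1 of 7 had an unadjusted p under 0.05, against 1648 of all genes. That gene was SGCA, with a log2 difference of 0.59 (SE 0.24, 95% interval 0.09 to 1.09, edgeR adjusted p 0.318). Without gel 1 its difference was 0.14 (SE 0.12, edgeR adjusted p 0.693). DMD was at -0.40 (SE 0.27, 95% interval -0.97 to 0.17) and UTRN at -0.32 (SE 0.18, interval -0.69 to 0.06), and without gel 1 these were -0.15 (SE 0.13) and -0.14 (SE 0.11). DAG1 (0.00, interval -0.26 to 0.27), SGCD (0.00, interval -0.33 to 0.33) and SSPN (0.02, interval -0.55 to 0.58) had fitted differences close to 0, and SGCB was at 0.33 (interval -0.14 to 0.80). DESeq2 and limma voom with sample quality weights also passed 0 of the 7, where they passed 0.0491% and 0% of all genes.

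Repair only against uninjured muscle passed 0 of the 7 genes in edgeR, where 1.01% of all genes passed (112 higher and 5 lower), and 0 of the 7 had an unadjusted p under 0.05, against 1360 of all genes. With the animal code as a block, 0% of all genes passed. DMD had the largest difference, 0.29 (SE 0.23, interval -0.20 to 0.77), followed by DAG1 at 0.19 (SE 0.11, interval -0.04 to 0.42). The other 5 lay between -0.06 (SGCB) and 0.09 (SGCA). Of the marker lists, 4 of 5 adipocyte genes, 1 of 8 fibroblast genes and 1 of 5 Schwann cell genes rose in this comparison and none fell, with a summed adipocyte level of 208 to 917 CPM in repair and 157 to 269 CPM in uninjured muscle. These calls rest on single libraries: without repair 1 or without repair 3, whose adipocyte sums were 917 and 710 CPM, 0 genes of all those tested passed. Without repair 2 there were 319 calls, without repair 5 there were 185 and without repair 4 there were 62, and without uninjured 3, 4 and 10 there were 69, 71 and 63, while the members passed stayed at 0 of 7.

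The gel against uninjured muscle also passed 0 of the 7 genes, where 0.00862% of all genes passed (1 gene), and 1 of 7 had an unadjusted p under 0.05, against 1606 of all genes. SGCA was at 0.67 (SE 0.20, interval 0.25 to 1.10, unadjusted p 0.00315, edgeR adjusted p 0.325), and at 0.21 (SE 0.10, adjusted p 0.712) without gel 1. UTRN was at -0.31 (SE 0.16, interval -0.63 to 0.02) and at -0.14 (SE 0.10) without gel 1. DAG1 was at 0.19 (SE 0.11) and SGCB at 0.27 (SE 0.20), and DMD, SGCD and SSPN lay between -0.11 and -0.02. The 3 long-term comparisons share libraries, so their values are not independent of one another.

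Set against the uninjured muscle with the same animal code, SGCA was higher in gel muscle in 5 of 5 animals, by 0.04 to 1.84 on the log2 scale, and in repair muscle in 2 of 5. DAG1 was likewise higher in gel muscle in 5 of 5 animals, by 0.02 to 0.65, and in repair muscle in 3 of 5. DMD was higher in 4 of 5 gel and 4 of 5 repair muscles. For the gel these pairs included 186 CPM in the operated and 171 CPM in the uninjured muscle of gel 3, and 38.8 against 169 CPM in gel 1. UTRN was higher in 1 of 5 gel muscles and 4 of 5 repair muscles. SGCB, SGCD and SSPN were each higher in 3 of 5 gel muscles, in each case gel 2, 3 and 4, and in 2, 1 and 2 of 5 repair muscles. These counts are of TMM-scaled levels. Scaled by total counts, SGCA was lower in gel 2 (181 CPM) than in its uninjured muscle (186 CPM). DAG1 was then lower in gel 4 (290 CPM) than in its uninjured muscle (336 CPM). How many of all genes were higher in 5 of 5 animals was not counted. The sum of the 8 fibre markers was 262040, 214220, 224020, 219810 and 172860 CPM in gel 1 to 5. In their uninjured muscles it was 175670, 170240, 164360, 138620 and 206990 CPM, so gel 5 alone was lower. In the unpaired fit of gel against uninjured muscle, 6 of 8 fibre markers were above 0 and 2 below, with 0 calls (median 0.35, and -0.01 for all genes). The part of the fibre markers in the SGCA and DAG1 values was not tested. In the fit with the animal as a block, the gel minus uninjured difference was 0.62 for SGCA (SE 0.21, edgeR adjusted p 0.423) and 0.27 for DAG1 (SE 0.14, adjusted p 0.448).

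**Figure D2:**
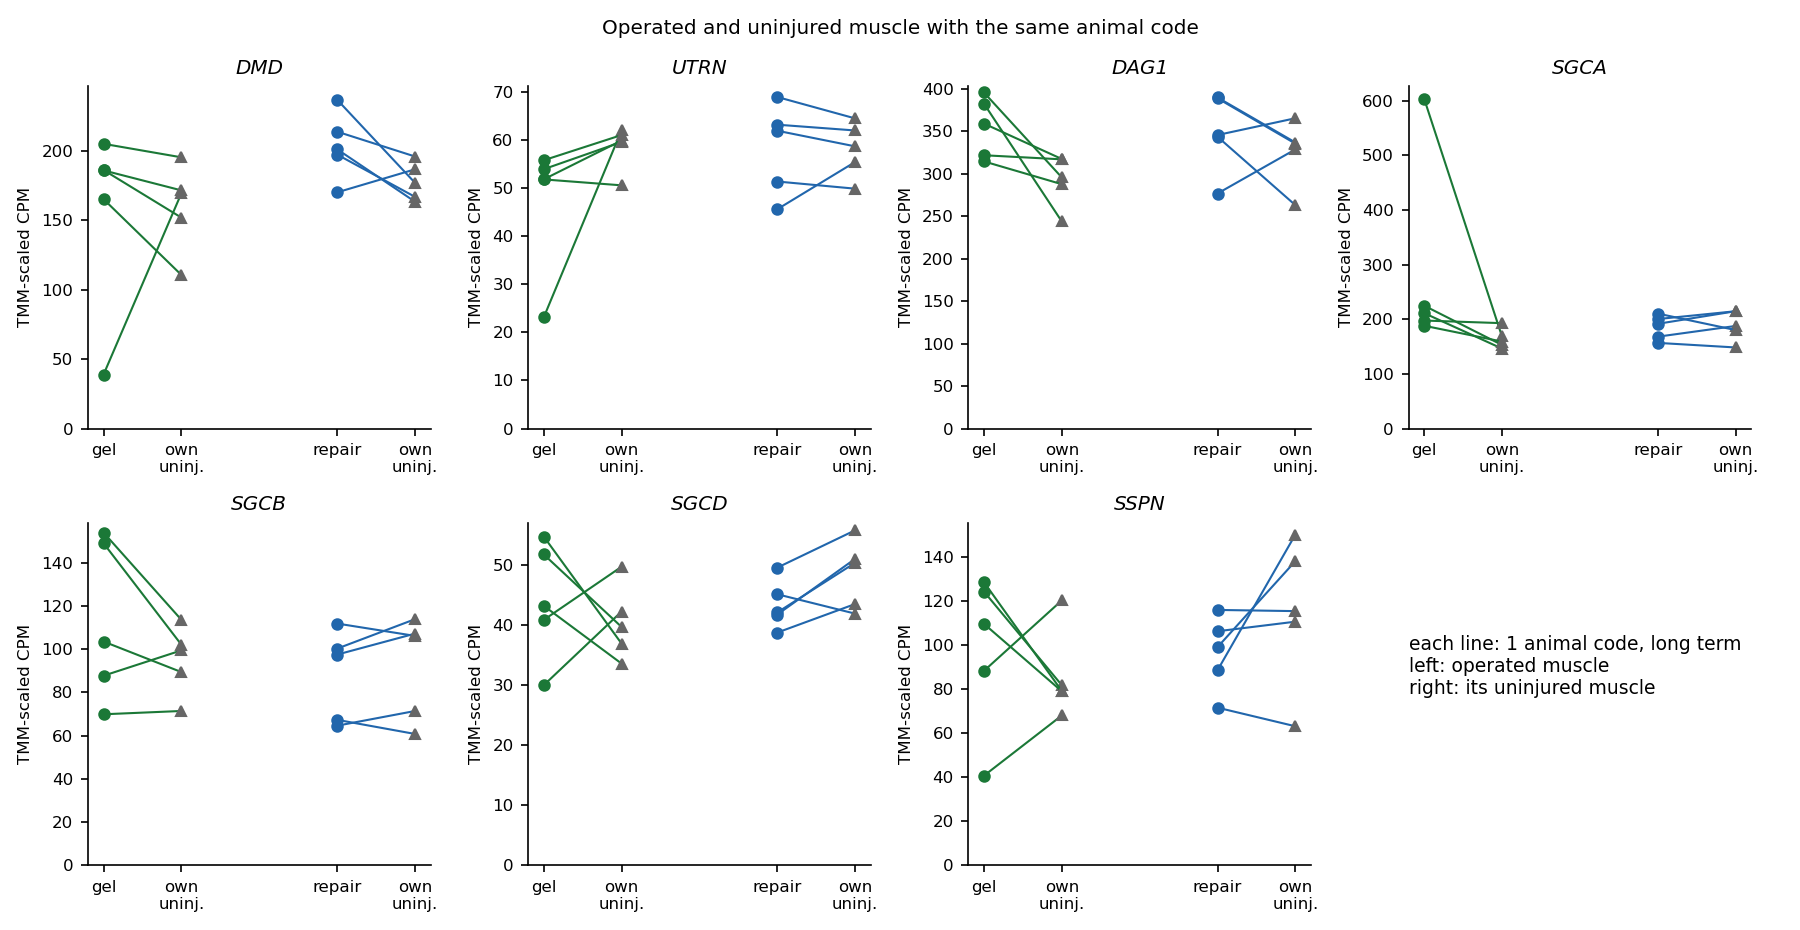
TMM-scaled CPM (linear axis from 0) of the 7 genes in operated long-term muscle and in the uninjured muscle with the same animal code, joined by a line, for the gel (5 animals) and for repair only (5 animals). All 5 gel lines of DAG1 and SGCA run higher on the operated side, by 0.02 to 0.65 and 0.04 to 1.84 on the log2 scale. Scaled by total counts (not drawn), gel 2 was lower on the operated side for SGCA (181 against 186 CPM). Gel 4 was then lower for DAG1 (290 against 336 CPM).

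In the short term, the questions were what the gel added to a repair and how each operated group differed from injury only. The gel against repair only passed 0 of the 7 genes (edgeR), where 0% of 13526 genes passed, and 0 of the 7 had an unadjusted p under 0.05, against 1404 of all genes. DESeq2 also passed 0 of the 7, where 88 of 14057 genes rose and 32 fell. With all libraries in 1 edgeR fit 0 of the 7 passed, where 51 of 12935 genes rose and 42 fell. DAG1 was at 0.36 (SE 0.18, interval -0.04 to 0.75, adjusted p 0.522), SGCA at 0.35 (SE 0.31, interval -0.32 to 1.01), DMD at 0.23 (SE 0.26) and SGCD at 0.20 (SE 0.26). UTRN was at -0.31 (SE 0.23, interval -0.79 to 0.18), SSPN at -0.34 (SE 0.34) and SGCB at -0.02 (SE 0.37). The intervals of SGCB (-0.81 to 0.78) and SSPN (-1.06 to 0.38) were wide, so with 5 libraries a group the data were compatible with differences of either sign. Without repair 5, DMD was at 0.02 (SE 0.19), SGCA at 0.20 (SE 0.33), SGCD at 0.08 (SE 0.28), SGCB at -0.27 (SE 0.28) and SSPN at -0.52 (SE 0.33).

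Repair only against injury only passed 0 of the 7 genes (edgeR), where 0% of all genes passed, and 0 of the 7 had an unadjusted p under 0.05, against 1973 of all genes. DESeq2 also passed 0 of the 7, where 213 of 14057 genes rose and 42 fell. Fitted differences were -0.53 for SGCD (SE 0.27, interval -1.11 to 0.06), -0.42 for SGCB (SE 0.39), -0.39 for SGCA (SE 0.33), -0.38 for SSPN (SE 0.36) and -0.32 for DAG1 (SE 0.19), while DMD and UTRN were at 0.03 (SE 0.27) and -0.02 (SE 0.24). With any 1 of the 9 libraries left out, 0 of the 7 passed. Without repair 5, SGCB was at -0.22 (SE 0.30) and DMD at 0.19 (SE 0.20). Repair 4 had the highest SGCA, SGCD and fibre sum of its group, and injury 3 the lowest of its group for all 3. Leaving out both, as an earlier analysis of these data had done, by itself moves SGCA and SGCD towards lower values in repair, so the result is a description with no weight as a test: SGCA was at -0.97 (SE 0.24), SGCD at -0.95 (SE 0.22) and UTRN at 0.37 (SE 0.15), and 33.3% of all genes passed. Limma voom, which gives outlying libraries less weight, passed SGCA (-0.70, SE 0.21, adjusted p 0.0217), SGCD (-0.75, SE 0.19, adjusted p 0.0122) and UTRN (0.45, SE 0.15, adjusted p 0.0353), when 34.8% of all genes passed. The members passed were thus 2 of 7 without the 2 libraries and 3 of 7 with voom. Scaling by total counts in place of TMM put the median of all genes at 0.39, where it was 0.02 under TMM, and turned UTRN (0.23), DAG1 (0.061), SGCA (0.012), SGCB (0.032) and SSPN (0.16) to the positive side, with 0 of the 7 past the threshold. The fibroblast sum ran from 1235 to 84867 CPM in repair and from 1262 to 8797 CPM in injury, and the fibre sum from 46860 to 246820 CPM in repair and from 64658 to 286190 CPM in injury, and their part in these differences was not tested.

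The gel against injury only passed 0 of the 7 genes (edgeR), where 0% of all genes passed, and 0 of the 7 had an unadjusted p under 0.05, against 2493 of all genes. DESeq2 also passed 0 of the 7, where 494 of 15022 genes rose and 265 fell. With all libraries in 1 edgeR fit 0 of the 7 passed, where 555 of 12935 genes rose and 530 fell. SSPN was at -0.72 (SE 0.36, interval -1.48 to 0.05, adjusted p 0.298), SGCB at -0.43 (SE 0.39), UTRN at -0.33 (SE 0.24) and SGCD at -0.32 (SE 0.27). DMD was at 0.27 (SE 0.27), DAG1 at 0.04 (SE 0.19) and SGCA at -0.04 (SE 0.33). Limma voom passed SSPN, at -0.99 (SE 0.29, adjusted p 0.0229), when 28.1% of all genes passed. UTRN was at -0.02 (SE 0.14) without injury 3 and repair 4.

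**Figure D3:**
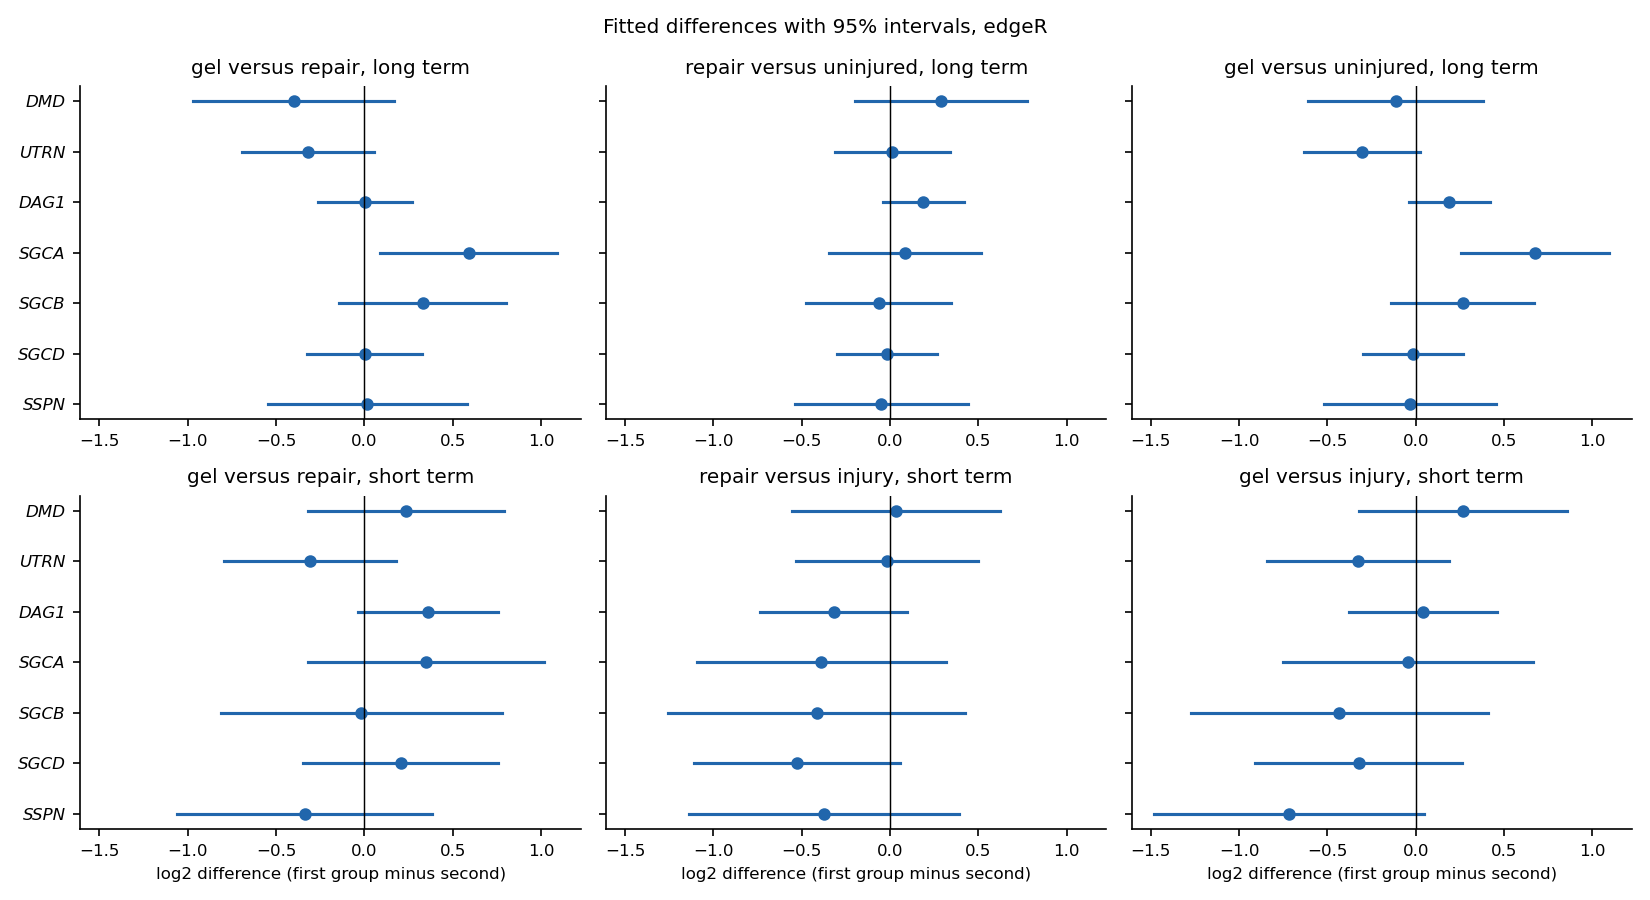
Fitted log2 differences (horizontal axis, first group minus second) of the 7 genes in the 6 comparisons within a term, with 95% intervals from edgeR. The intervals of SGCA in the long-term gel comparisons, 0.09 to 1.09 against repair and 0.25 to 1.10 against uninjured muscle, lie above 0 before adjustment. Without gel 1 the fitted differences were smaller, 0.14 and 0.21.

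Between terms, DAG1 was the only member that passed the threshold in long-term repair against short-term repair, where it was higher. DAG1 averaged 349 ± 46.1 CPM in long-term repair and 175 ± 40.8 CPM in short-term repair (SD, n = 5 each), a log2 difference of 0.99 (SE 0.15, interval 0.68 to 1.31, edgeR adjusted p 6.7e-06). This was 1 of 7 genes higher and 0 lower, where 46.2% of all 12935 genes passed, 18.2% higher and 27.9% lower. The other differences were 0.67 for SSPN (SE 0.31, adjusted p 0.0752), 0.44 for SGCD (SE 0.21, adjusted p 0.0862), 0.31 for DMD (SE 0.27), 0.18 for SGCB (SE 0.30), 0.11 for UTRN (SE 0.20) and -0.07 for SGCA (SE 0.28). Without long-term gel 1, which is in neither group but in the same fit, SGCD (0.49, adjusted p 0.0463) and SSPN (0.72, adjusted p 0.0388) passed as well, 3 of 7 members where 51.6% of all genes passed and the median of all genes was -0.06. Without short-term injury 3 and repair 4, SGCD (0.57, SE 0.18, adjusted p 0.00843) passed beside DAG1, 2 of 7 where 55.6% of all genes passed. Leaving out short-term repair 2 alone, the library with the highest SSPN of its group, brought SSPN past the threshold (0.83, adjusted p 0.0418). In that fit 2 of 7 members passed, where 2062 of 12860 genes rose and 3450 fell. Leaving out short-term repair 4 alone, the library with the highest SGCD of its group, brought SGCD past it (0.57, adjusted p 0.0286). Again 2 of 7 passed, where 2906 of 12922 genes rose and 3952 fell. Leaving out the highest short-term library by itself raises such a difference, so these calls have no weight as a test. The call of SGCD without injury 3 and repair 4 is of the same kind. Without short-term repair 5, DAG1 was at 0.91 (adjusted p 4.01e-05), SSPN at 0.51 (SE 0.31), DMD at 0.12 (SE 0.25) and SGCB at -0.05 (SE 0.26).

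In long-term gel against short-term gel, DAG1 and SSPN passed, both higher. DAG1 averaged 355 ± 35.96 CPM in the long term and 219 ± 29.0 CPM in the short term (SD, n = 5 each), a log2 difference of 0.70 (SE 0.15, interval 0.39 to 1.01, edgeR adjusted p 0.000431). SSPN averaged 98.1 ± 35.9 CPM in the long term and 46.6 ± 15.6 CPM in the short term, a difference of 1.07 (SE 0.31, interval 0.44 to 1.71, adjusted p 0.0056), and of 1.32 (SE 0.31, adjusted p 0.000815) without gel 1. These were 2 of 7 genes higher and 0 lower, where 48.3% of all genes passed, 21.8% higher and 26.5% lower. SGCB was at 0.59 (SE 0.30, adjusted p 0.106), SGCD at 0.29 (SE 0.21), SGCA at 0.25 (SE 0.28), UTRN at 0.15 (SE 0.20) and DMD at -0.27 (SE 0.27). Without gel 1, SGCB also passed (0.77, SE 0.31, adjusted p 0.0397), 3 of 7 where 53.1% of all genes passed, and DMD was at 0.02 (SE 0.21). SGCB passed too without short-term gel 2 (0.86, adjusted p 0.0218), 3 of 7 members where 2724 of 12893 genes rose and 3344 fell. Gel 1 had the lowest SSPN and SGCB of long-term gel (40.5 and 69.8 CPM). Short-term gel 2 had the highest SGCB of its group (128 CPM). Leaving out either library by itself raises these differences, so the calls without them have no weight as a test.

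In edgeR, the share of members that passed in either direction was below that of all genes in both comparisons between terms, and none passed as lower. Limma voom passed 2 of the 7 in repair, where 55.4% of all genes passed, and 5 of the 7 with the gel, where 60.9% passed, so the order of these shares with the gel depends on the test. Under TMM, DAG1 was the only member whose groups did not overlap, which was so for 22.8% of genes with a mean of 10 counts or more in repair and 28.8% with the gel. Scaled by total counts, short-term gel 3 (322 CPM of DAG1) lay above long-term gel 1 (277 CPM), so the gel groups overlapped. The repair groups stayed apart, with 312 CPM or more in the long term and 279 CPM or less in the short term. Scaling by total counts in place of TMM put the median of all genes at -0.45 for repair, where it was -0.11 under TMM, and at -0.43 for the gel, where it was -0.09. The calls over all genes were then 1192 higher and 4915 lower in repair, where TMM gave 2359 and 3613, and 1455 higher and 4540 lower with the gel, where TMM gave 2825 and 3427. Under total counts DAG1 was at 0.68 in repair (adjusted p 0.000712) and at 0.35 with the gel (SE 0.15, adjusted p 0.0626), so the call with the gel was lost, while both values remained above the median of all genes. SSPN with the gel was at 0.79 (adjusted p 0.023) under that scaling.

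Markers of other cell types differed between the terms as well. Of 8 fibroblast markers, 7 fell in each comparison. Their sum was 910 to 2681 CPM in long-term repair and 1235 to 84867 CPM in short-term repair, and 859 to 1292 CPM in long-term gel and 3744 to 10407 CPM in short-term gel. Of 7 macrophage markers, 5 fell in repair, with sums of 34.2 to 56.4 CPM and 15.3 to 281 CPM in the long and short term, and 6 fell with the gel, with sums of 25.6 to 45.96 CPM and 58.2 to 294 CPM. Of 8 fibre markers, 2 rose in repair (TTN and MYLPF) and 2 with the gel (CKM and RYR1), and none fell. Under total counts scaling 8 and 7 of the 8 fibroblast markers and 7 and 6 of the 7 macrophage markers fell in repair and with the gel, and 5 and 2 of the 8 fibre markers rose and none fell. Of 4 markers of regenerating fibres, 2 fell in repair and 3 with the gel, and none rose. Of 5 Schwann cell markers, 2 rose and 1 fell in repair, and 3 rose with the gel, but 1 under total counts. Of 6 smooth muscle and pericyte markers, 2 rose and 4 fell in repair, and 1 rose and 2 fell with the gel. Under total counts 0 of these rose and 4 fell in repair, and 1 rose and 4 fell with the gel. Of 5 endothelial markers, 2 rose and 1 fell in repair, but 0 rose under total counts, and 1 rose with the gel, where the median of the list was 0.21 under TMM and -0.21 under total counts. Adipocyte markers had 0 calls in repair and 1 of 5 lower with the gel. No fibroblast, macrophage or fibre marker was at 0 in a library. The part of these shifts in the DAG1 and SSPN values was not tested.

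The effect of the gel (gel minus repair) was also compared between the terms. The long-term minus short-term difference of that effect passed for 0 of the 7 genes, where 0.0155% of all genes passed (2 genes), and 0 of the 7 had an unadjusted p under 0.05, against 1646 of all genes. The values ran from -0.58 for DMD (SE 0.38, interval -1.36 to 0.21) to 0.41 for SGCB (SE 0.43, interval -0.46 to 1.27), with DAG1 at -0.30 (SE 0.21, interval -0.73 to 0.14). Without short-term repair 5, DMD was at -0.39 (SE 0.35) and SGCB at 0.63 (SE 0.36).

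**Figure D4:**
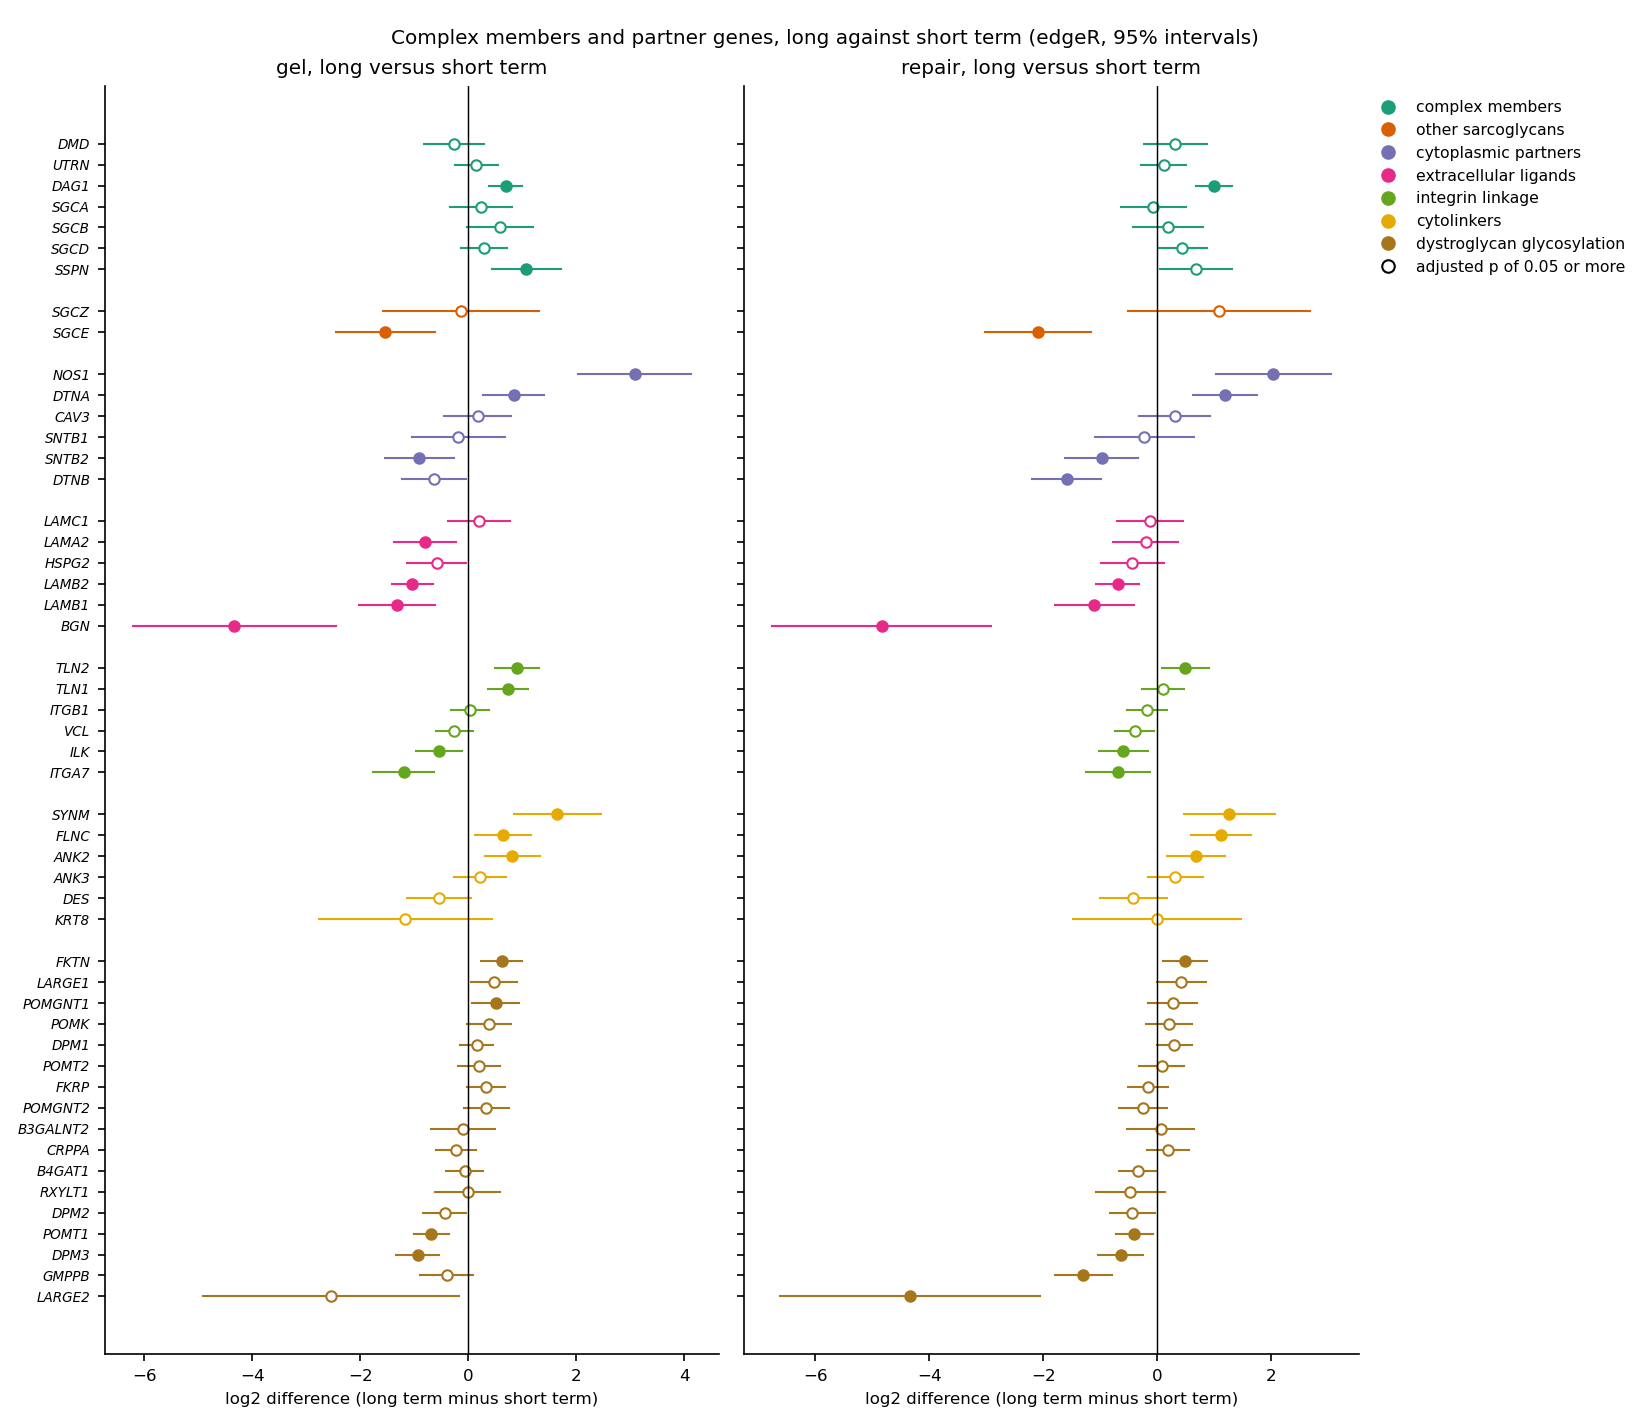
Fitted log2 differences (horizontal axis, long term minus short term) of the 7 members and 43 partner genes in 6 lists, for the gel (left) and for repair only (right), with 95% intervals from edgeR. Filled points passed the threshold. DAG1 stands at 0.70 with the gel and 0.99 in repair, NOS1 is the partner gene furthest to the right with the gel at 3.09, and BGN lies furthest to the left in both, at -4.33 and -4.84.

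The partners of the complex were read from 6 lists of 49 genes, of which 44 were in the files and 43 or 40 were tested. They were chosen by their known roles, though with earlier results of these data known. Within terms none of them passed in edgeR, where 0% to 1.01% of all genes did. The partner genes with the smallest p were SGCZ (zeta-sarcoglycan, 0 to 1.34 CPM in gel and 0 to 0.308 CPM in repair) and DPM3 (0.40, SE 0.20) for short-term gel against repair. For repair against injury they were LARGE2, below 5 CPM in every library, and B3GALNT2 (-0.93, SE 0.39), both of the glycosylation of dystroglycan. SYNM (synemin, an intermediate filament protein, -1.50, SE 0.56) and DPM1 (-0.35, SE 0.15) came first for short-term gel against injury. In the long term these were TLN2 (talin 2, 0.47, SE 0.17) and LAMA2 (the laminin alpha chain of muscle, -0.63, SE 0.25) for gel against repair. For repair against uninjured muscle they were BGN (biglycan, 1.21, SE 0.45) and LAMA2 (0.57, SE 0.21), and for gel against uninjured muscle B4GAT1 (0.51, SE 0.14) and TLN1 (talin 1, 0.43, SE 0.15). Their edgeR adjusted p-values lay between 0.203 and 0.517. For the change of the gel effect between terms they were GMPPB (0.91, SE 0.34) and TLN1 (0.64, SE 0.26), which did not pass.

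Between terms, partners were called in both directions. For long-term against short-term repair, 7 of 43 rose and 12 fell, where 18.2% of all genes rose and 27.9% fell, with a median of -0.18 against -0.11 for all genes. For the gel 9 rose and 10 fell, where 21.8% of all genes rose and 26.5% fell, with a median of -0.09, as for all genes. The counts over all partners were thus near the background, and the same shares of all genes stand behind the count of each smaller list that follows. Total counts scaling left 4 that rose and 19 that fell in repair, and 4 that rose and 16 that fell with the gel, so the balance between rises and falls was not kept. Of 6 tested cytolinkers, which join the membrane to the cytoskeleton, 3 rose and 0 fell in each comparison: ANK2, FLNC and SYNM. SYNM averaged 1298 ± 149.9 CPM in long-term repair and 541 ± 477 CPM in short-term repair, a difference of 1.26 (SE 0.39, edgeR adjusted p 0.00997), and 1.65 (SE 0.40, adjusted p 0.00114) with the gel. FLNC, for the filamin of striated muscle, was at 1.11 (SE 0.26) in repair. With total counts SYNM passed in both comparisons (1.13 in repair and 1.39 with the gel), FLNC in repair alone (0.71, and 0.26 with the gel) and ANK2 in neither (0.33 and 0.54), while DES (desmin) passed as lower in both (-0.79 and -0.94).

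Of the extracellular partners, 0 of 6 rose, and 3 fell in repair and 4 with the gel. BGN, a matrix proteoglycan that binds sarcoglycans and dystroglycan, had the largest fall, to 27.6 ± 18.1 CPM in long-term repair, against 790.3 ± 886 CPM in short-term repair, a log2 difference of -4.84 (SE 0.94, edgeR adjusted p 0.000156), and -4.33 (SE 0.93, adjusted p 0.000355) with the gel. LAMB1, a laminin beta chain, was at -1.32 (SE 0.34) with the gel. ITGA7, the integrin subunit that binds laminin in parallel to the complex, fell with the gel by 1.19 on the log2 scale (SE 0.28, edgeR adjusted p 0.000863), while TLN2, which links integrins to actin, rose by 0.90 (SE 0.20). These calls were also made with total counts, where 3 extracellular partners fell in repair and 5 with the gel.

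Cytoplasmic partners moved both ways, 2 up and 2 down of 6 in repair and 2 up and 1 down with the gel. NOS1, the neuronal nitric oxide synthase that the complex anchors at the membrane, averaged 76.5 ± 11.1 CPM in long-term gel and 9.01 ± 7.02 CPM in short-term gel, a difference of 3.09 (SE 0.51, edgeR adjusted p 1.7e-05), and of 2.04 in repair (SE 0.49, adjusted p 0.00131). The NOS1 range was 66.7 to 94.4 CPM in long-term gel and 2.46 to 20.4 CPM in short-term gel. DTNA (alpha-dystrobrevin, the form of muscle fibres) rose by 1.18 (SE 0.28) in repair and 0.84 (SE 0.28) with the gel, whereas DTNB (beta-dystrobrevin, known mainly from tissues other than muscle) fell in repair by 1.59 (SE 0.30). SGCE, for epsilon-sarcoglycan, which unlike SGCA is made in many cell types, fell in both, with log2 differences of -2.10 (SE 0.45) in repair and -1.53 (SE 0.45) with the gel. Of 17 genes that glycosylate dystroglycan, 1 rose and 4 fell in repair and 2 rose and 2 fell with the gel, but with total counts 0 rose in either, and 9 fell in repair and 4 with the gel. The calls given here for NOS1, DTNA, DTNB, SGCE and LARGE2 were also made with total counts. LARGE2, a glycosyltransferase, fell in repair, with 0 to 0.133 CPM in the long term and 0.0822 to 4.93 CPM in the short term, too few counts for a fold change to be given. Long-term and short-term libraries differed in the fibroblast and macrophage sums given above, and the part of these in the falls was not tested.

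Members did not keep 1 ratio to each other across libraries. The ratio of SGCA to DMD was 15.6 in long-term gel 1, against 0.918 to 1.21 in the other 4 long-term gel libraries, and lay between 0.710 and 2.03 in all others of the series. The ratio of UTRN to DMD had a median of 0.304 over the 32 libraries other than long-term gel 1 and short-term repair 5, and was high in short-term injury 3 (0.752), short-term repair 5 (0.686) and long-term gel 1 (0.596). In injury 3 UTRN was high (90.6 CPM) and DMD was the lowest of its group (120.3 CPM). DMD was low in repair 5 (69.5 CPM) and gel 1 (38.8 CPM), and in gel 1 UTRN was low as well (23.1 CPM). In uninjured muscle the ratio was 0.353 ± 0.055 (SD, n = 10), and in short-term gel 0.234 ± 0.057 (n = 5). The ratio of NEB to ACTA1, 2 fibre genes outside the complex, was 0.0137 in gel 1 and between 0.108 and 0.851 elsewhere, so gel 1 also stood apart in genes outside the complex. RNA quality is not given in the sources used here, and its part was not tested.

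**Figure D5:**
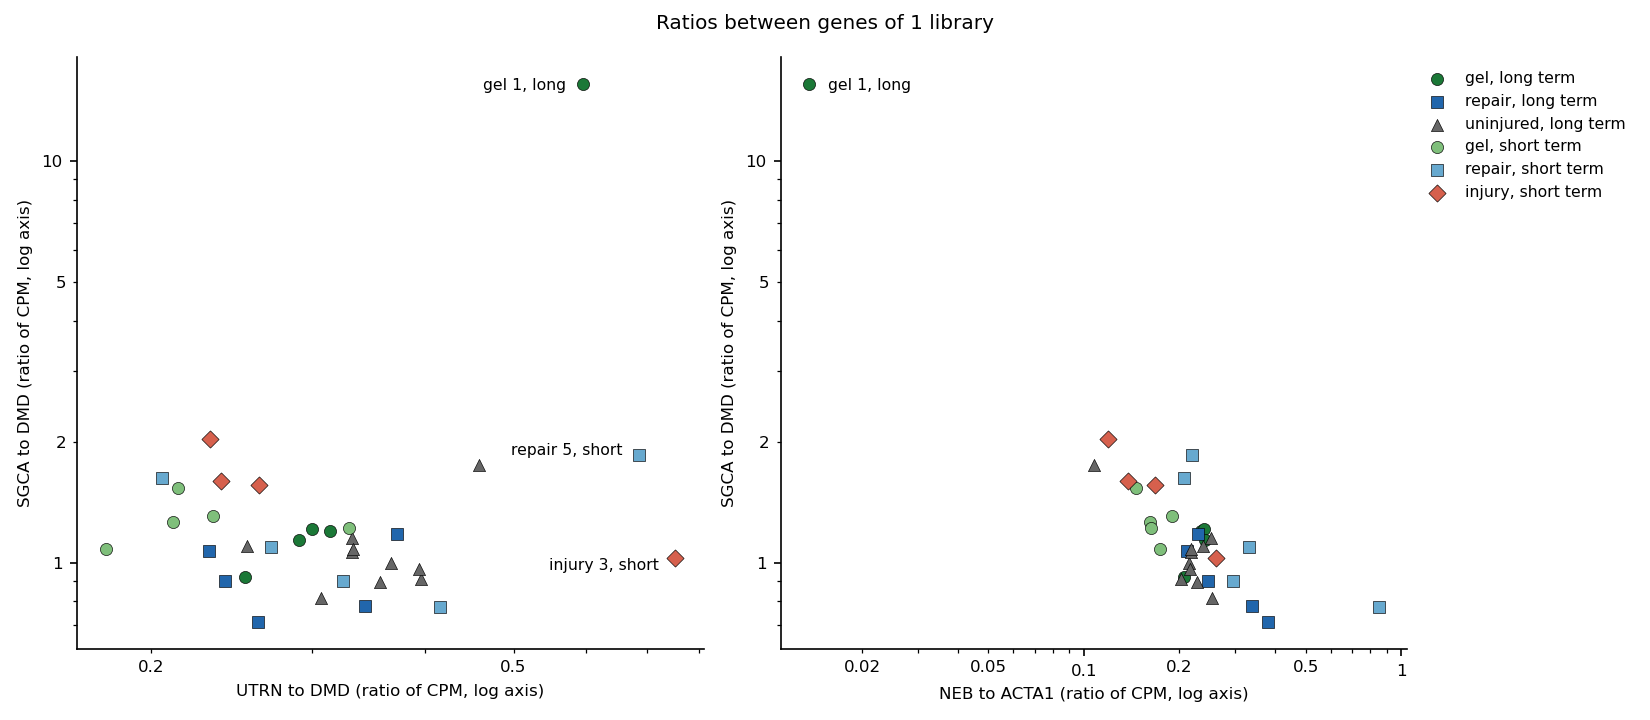
Ratios of CPM within each of the 34 libraries on log axes: SGCA to DMD against UTRN to DMD (left) and against NEB to ACTA1 (right), coloured by group. Long-term gel 1 lies alone at an SGCA to DMD ratio of 15.6, and short-term injury 3 and repair 5 lie furthest to the right in the left panel, at 0.752 and 0.686.

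As a description of how the members vary together, Pearson's r of log2 CPM was taken over the 14 short-term and the 20 long-term libraries, which have similar depth within a term but, in the short term, differ widely in their fibre and fibroblast sums. In the short term SGCB, SGCD and SSPN varied together (r of 0.79 for SGCB with SGCD, 0.81 for SGCB with SSPN and 0.74 for SGCD with SSPN). Over the long-term libraries the same r values were 0.34, 0.23 and 0.72, and without gel 1 they were 0.24, 0.08 and 0.58. The close variation of SGCB with the others was thus seen in the short term only. UTRN went the other way from SGCA in the short term (r of -0.74) and in the long term (-0.92, and -0.61 without gel 1). SGCA had the highest r with the summed fibre markers, 0.96 in the short term and 0.67 in the long term, though without gel 1 SSPN (0.88) was above SGCA (0.83) in the long term, and UTRN ran against them (-0.68 and -0.54). In the long term the r of DMD with UTRN was 0.82, but 0.07 without gel 1, and that of DMD with SGCA was -0.80, but 0.10 without it, so both rested on that library.

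The genes most like each member, taken by the smaller of the 2 r values among 9264 genes, differed between members. DMD was most like PLCL1, ITGB6 and NEB (smaller r of 0.90, 0.89 and 0.87), but over the long term without the 2 libraries furthest from the median these r values were 0.27, 0.45 and 0.29. UTRN was most like LRRK2, PHLDB2 and SPTBN1 (0.87, 0.86 and 0.86), but without the 2 furthest libraries the smaller r was 0.43 for LRRK2 (long term), 0.64 for PHLDB2 (short term) and 0.75 for SPTBN1 (long term). SGCA was most like ASNA1, CDC37 and IDH3G (0.94, 0.93 and 0.92), SGCD like ZYG11B, MTR and CACNA2D1 (0.86, 0.86 and 0.84) and SSPN like SETD6, MAPK8 and RABGAP1 (0.90, 0.89 and 0.87). For SGCA, SGCD and SSPN every one of these stayed at 0.76 or above in both terms without the 2 furthest libraries. DAG1 had no close match, with PIK3C2B, SEMA6C and MYPN at 0.70, 0.67 and 0.65, nor had SGCB, with LRRC66, YPEL2 and ACVR2B at 0.65, 0.57 and 0.56. In the short term without the 2 furthest libraries these r values ran from 0.26 to 0.42 for DAG1 and from 0.26 to 0.41 for SGCB.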

How the data were processed

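The deposited files hold raw counts as whole numbers, 1 file per library, and the authors applied no normalization to them. STAR, edgeR and the OryCun2.0 build appear in the submitters' processing notes. A commercial laboratory extracted the RNA and made the libraries, per the labels' protocols. How reads were assigned to genes, with which annotation and whether by strand, is not given in the sources used here. Reads of overlapping or antisense genes can therefore not be told apart. Of the 18210 entries in each file, 26 names that did not occur in every file were left out (dates in 1 file, 0.0865% of its counts), and 7 symbols with 15 entries were summed. Of 91 within-group pairs of libraries 0 were identical, and each differed by more than sampling noise (chi-square over its degrees of freedom 9.86 or more).

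The main test was the robust quasi-likelihood test of edgeR 4.0.16 in R 4.3.3, 2-sided, after TMM scaling and removal of low genes. P-values were adjusted by Benjamini-Hochberg over all genes tested, and the threshold was 0.05. Short-term comparisons were fitted over 14 libraries, long-term ones over 20 and those between terms over 34. The procedure was tested on simulated counts. Groups follow the sample titles. Operated and uninjured long-term muscles with the same animal code entered the main test unpaired and were treated as pairs in the alternative with the code as a block. Their deviations correlated above 0.1 in 6 of 10 pairs (-0.19 to 0.322).

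Members, partner lists, marker lists and the libraries left out were chosen with earlier results of these data known. All 7 members were named in every comparison. Partner genes were named as up to 4 past the threshold per direction, largest first, or otherwise the 2 with the smallest p. Of the partner genes, 2 are not reported here and were left out of the lists and counts. ANK2 and the single marker genes were named after their values were seen. Alternatives were DESeq2 1.42.0, its size factors, total counts, limma 3.58.1 voom with quality weights, no filter, replicate blocks, other sets of libraries, and each replicate left out.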

Additional observations from a re-analysis of the deposited data

Results flagged for a closer look

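Among 42 sets of values (7 genes in 6 groups), 6 had a library whose gap to its nearest neighbour was above Dixon's 95% critical value on the log2 scale. Chance flags about 1 in 20 groups. Of these, 3 belong to long-term gel 1, where DMD was lowest at 38.84 CPM, UTRN lowest at 23.14 CPM and SGCA highest at 604.1 CPM. Another 2 belong to short-term repair 5, with DMD lowest at 69.51 CPM and SGCB lowest at 21.46 CPM. The last was uninjured 4, with DMD lowest at 110.5 CPM among 10 libraries. That library also had the lowest ratio of NEB to ACTA1 among the uninjured ones, 0.108. The 90.6 CPM of UTRN in short-term injury 3 did not reach the critical value for 4 libraries.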

How the results depend on the processing

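The number of members past the threshold changed as follows. With limma voom it was 3 for repair against injury, 1 for short-term gel against injury, 2 for long-term against short-term repair and 5 for the gel between terms. Without short-term injury 3 and repair 4 it was 2 for repair against injury and 2 for repair between terms, and without long-term gel 1 it was 3 for repair between terms. Total counts scaling left 1 for the gel between terms, since DAG1 did not pass. With each replicate left out in turn it was 1 to 2 for repair between terms and 2 to 3 for the gel, and 0 in the other 7 comparisons. DAG1 passed in 10 of 10 such fits in both comparisons between terms. The title number as a block changed no count of members called by over 1.5 times, and the animal code as a block changed no call of a member. Samples that share a title number had mixed correlations of their deviations, above 0.1 in 2 of 5, 2 of 4, 1 of 4 and 0 of 5 pairs. In the short term these ran from -0.295 to 0.412 for gel and repair and from -0.081 to 0.401 for injury and gel. For injury and repair the range was -0.387 to 0.163, and for long-term gel and repair -0.131 to 0.0806. Each difference that turned, in log2 units, was one that had not passed the threshold in the main comparison, and the cause was not tested. With total counts scaling, the differences that turned were UTRN 0.23, DAG1 0.061, SGCA 0.012, SGCB 0.032 and SSPN 0.16 for repair against injury, and for short-term gel against injury SGCA 0.24, and for long-term gel against repair DAG1 -0.14, SGCD -0.13 and SSPN -0.080. For repair against uninjured muscle SGCD 0.025 turned, and for long-term against short-term repair UTRN -0.26 and SGCB -0.095, and for long-term against short-term gel UTRN -0.17, SGCA -0.15 and SGCD -0.025. With limma voom, the differences that turned were UTRN 0.45 for repair against injury, and for short-term gel against injury UTRN 0.0048 and DAG1 -0.083, and for long-term gel against repair DAG1 -0.0067, and for repair against uninjured muscle UTRN -0.043. For gel against uninjured muscle DMD 0.059, SGCD 0.084 and SSPN 0.19 turned, and for long-term against short-term repair UTRN -0.036 and SGCA 0.066, and for long-term against short-term gel SGCA -0.21, and for the change of the gel effect between terms SGCA -0.27. Leaving out short-term injury 3 and repair 4, the differences that turned were SGCB 0.093 for short-term gel against repair, and for repair against injury DMD -0.23 and UTRN 0.37, and for short-term gel against injury DAG1 -0.098. For long-term against short-term repair SGCA 0.23 turned. Leaving out long-term gel 1, the differences that turned were DAG1 -0.018 for long-term gel against repair, and for gel against uninjured muscle DMD 0.13, SGCD 0.094 and SSPN 0.16, and for long-term against short-term gel DMD 0.019 and SGCA -0.19. For the change of the gel effect between terms SGCA -0.16 turned. With the title number as a replicate block, the differences that turned were SGCB 0.077 for short-term gel against repair, and for repair against injury UTRN 0.064, and for long-term gel against repair SGCD -0.011 and SSPN -0.043. For repair against uninjured muscle UTRN -0.013 and SSPN 0.082 turned, and for gel against uninjured muscle SSPN 0.039. With the animal code as a replicate block, the differences that turned were SGCA -0.0083 for repair against uninjured muscle, and for gel against uninjured muscle SGCD 0.10 and SSPN 0.12. Without the filter, the differences that turned were DAG1 -0.016 for short-term gel against injury. Fitting only the groups compared, the differences that turned were DAG1 -0.0091 for short-term gel against injury, and for repair against uninjured muscle UTRN -0.0057. Fitting all libraries together, the differences that turned were UTRN -0.0035 for repair against uninjured muscle. With each replicate left out in turn, short-term gel against injury gave DAG1 -0.098 to 0.11 and SGCA -0.33 to 0.11. Long-term gel against repair gave DAG1 -0.064 to 0.047, SGCD -0.089 to 0.12 and SSPN -0.099 to 0.22. Gel against uninjured muscle gave DMD -0.23 to 0.13, SGCD -0.11 to 0.094 and SSPN -0.15 to 0.16. Long-term against short-term gel gave DMD -0.38 to 0.019 and SGCA -0.19 to 0.37. Repair against injury gave DMD -0.12 to 0.19 and UTRN -0.16 to 0.30. The change of the gel effect between terms gave SGCA -0.16 to 0.45, SGCD -0.28 to 0.0012 and UTRN -0.037 to 0.21. Long-term against short-term repair gave SGCA -0.20 to 0.22 and SGCB -0.051 to 0.30. Short-term gel against repair gave SGCB -0.29 to 0.092. Repair against uninjured muscle gave SGCB -0.17 to 0.033, SGCD -0.064 to 0.026, SSPN -0.12 to 0.035 and UTRN -0.066 to 0.093. Depth kept no member from being tested, the lowest count being 221. Standard errors of members reached 0.39 in the short term.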
